A study of Mus musculus with 8 samples.

Results

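Rapamycin alone was compared with vehicle in tumors of the mouse line 105K, which is Tsc2-null and was engrafted in C57BL/6J hosts that keep their immune system. The comparison holds 4 of the 8 tumors of the series, chosen by their treatment label: D1L and G3L received rapamycin at 0.25 mg/kg/day into the peritoneum, and B1L and F5L received the vehicle, carboxymethylcellulose. The other 4 tumors, which entered the fit to estimate the spread, were A3L and C1R with rapamycin and loratadine (25 mg/kg/day) and B3R and F3R with loratadine alone, an antihistamine that blocks the H1 receptor. All 8 tumors carry the Tsc2-null genotype, so no group has intact TSC2 in its tumor cells, and the host cells around them keep it. By the study's methods the mice were female and the cells were placed under the skin, while the labels call the tissue mammary tumor. Of the milk protein genes that mark mammary gland, Csn2, Wap, Lalba and Csn1s1 reached at most 0.264 TPM in any of the 8 tumors, whereas Csn3 was at 3.63 and 0.692 TPM in the rapamycin tumors, against 174 and 1.53 TPM in the vehicle tumors, and is thus high in B1L alone among these 4. Pax2, a transcription factor of the renal tubule, was at 19.4 and 23.2 TPM in the rapamycin tumors, against 22.4 and 13 TPM in the vehicle tumors, where the groups overlapped. Of 9 renal tubule genes tested, Pax2 among them, 6 were above vehicle in both rapamycin tumors and 0 below. Of all genes 35.5% were above and 22.8% below. The median log2 fold change of the 9 genes was 0.77, and 0 passed the threshold given below. Values of a pair of tumors are given below in the order D1L and G3L for rapamycin, and B1L and F5L for vehicle. The codes begin with D and G in the rapamycin group and with B and F in the vehicle group, and if these letters stand for cages, cage and drug cannot be told apart. By the methods, tumors were larger at the start of treatment in the arms with rapamycin than in those with another drug alone, and which volume applied to these vehicle tumors is not given in the sources used here.

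TSC2, with TSC1, holds back the small GTPase RHEB, and in its absence the kinase complex mTORC1 stays active and drives protein, lipid and nucleotide synthesis, glycolysis and the cell cycle. Rapamycin binds FKBP12, and the pair inhibits mTORC1. Loss of TSC2 function underlies tuberous sclerosis and lymphangioleiomyomatosis (LAM), a lung disease that is treated with this drug.

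Expression was deposited as TPM, a share of all transcripts in which gene length is taken into account. TPM keeps no read depth, so depth is unknown, and precision rests on the spread between tumors. At least 1 TPM was reached by 13981 and 14158 genes in the rapamycin tumors, against 13251 and 13274 genes in the vehicle tumors. Mitochondrial transcripts took 5.58 and 5.39% of the TPM in the rapamycin tumors, against 7.88 and 7.51% in the vehicle tumors. The Pearson correlation of log2(TPM + 1) across the tested genes, which are not independent replicates, was 0.929 between the rapamycin tumors and 0.966 between the vehicle tumors, and lay between 0.886 and 0.910 across the groups. Tsc2, the gene that the line lacks, was at 78.1 and 58.4 TPM in the rapamycin tumors, against 42.4 and 42 TPM in the vehicle tumors (log2 fold change 0.67 ± 0.22, adjusted p = 0.084). These values do not check the genotype, since a TPM per gene does not show which exons were read and host cells carry the gene.

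Of 15095 genes tested, 1004 (6.65%) were higher and 786 (5.21%) were lower with rapamycin than with vehicle, by limma on log2(TPM + 1) at an adjusted p under 0.05, the threshold past which a gene is called, or said to rise or fall, below. Fold changes are on the log2(TPM + 1) scale, which understates the change of low genes, and are given ± their standard error. The fit took the 4 group means over 8 tumors, with 4 residual degrees of freedom. All genes together had a median log2 fold change of 0.14, which became -0.03 with median-of-ratios scaling, a shift of the whole table against which the changes below can be read. That scaling called 719 genes higher and 1399 lower, and quantile normalization called 796 higher and 957 lower. Of the 1004 higher genes, 714 were called again with median-of-ratios scaling and 767 with quantile normalization, and of the 786 lower genes 786 and 751. The number of calls depended on single tumors. It was 36 without B1L, 245 without F5L, 600 without G3L and 1130 without D1L, and between 807 and 1007 with a tumor of the other groups left out. Where a tumor of the 2 groups was left out, the remaining tumor was assumed to vary like the other groups. With n = 2 in each group, an exact permutation test of 1 gene cannot give a two-sided p below 0.333. Of the 117 named genes past the threshold, 11 were called without B1L (Aoc1, Inmt, Pth1r, Sytl2, Ptgds, Aldh1l2, Cth, Gsta1, Gsta2, Sh2d6 and Gsta3) and 30 without F5L, and each other gene named by rule lost its call with B1L left out. The labels do not say that replicate tumors came from separate mice, so p-values measure the spread between these tumors, which may be technical. As the RNA came from whole tumors, fewer cells of a type and less RNA per cell cannot be told apart.

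**Figure D1:**
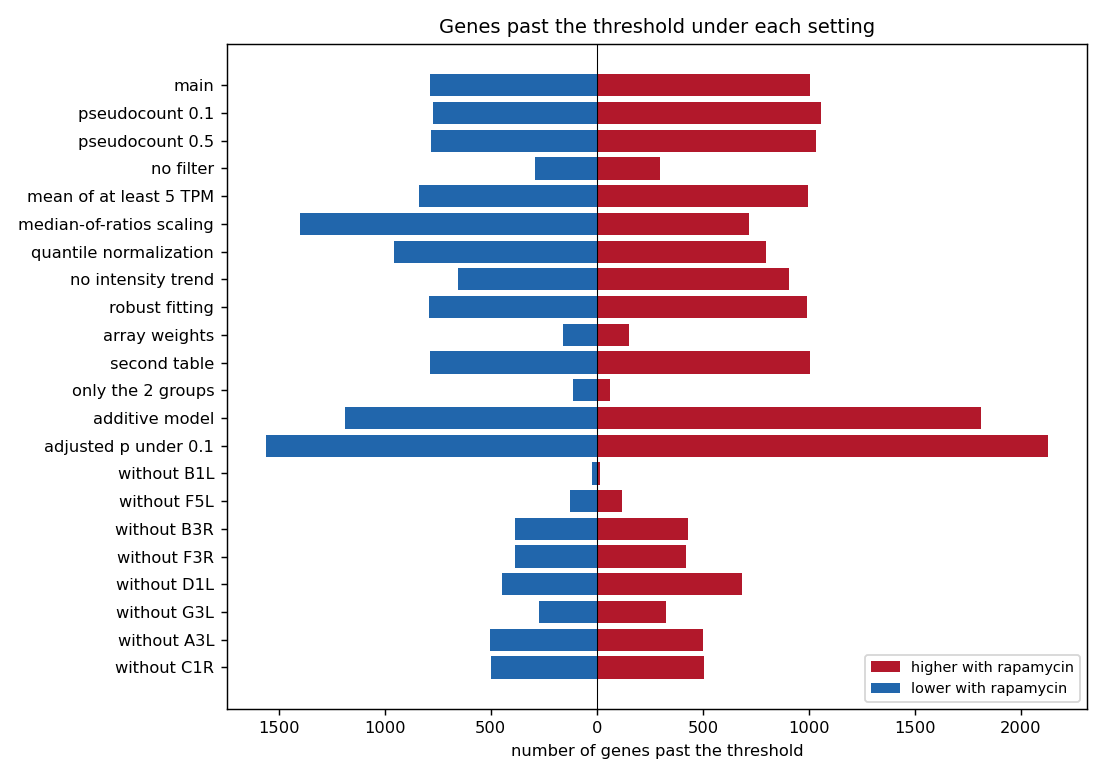
Number of genes past the threshold for rapamycin against vehicle (horizontal axis, higher to the right and lower to the left) under each setting of the fit (vertical axis), with tumors named by their code where 1 was left out. The count is 1790 in the first row and 36 without B1L.

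The largest changes on the higher side included Apoc1, Aoc1, Pth1r and Ptgds. Apoc1, an apolipoprotein that lipoprotein particles carry (ENSMUSG00000040564, chromosome 7 from 20274833 to 20278007 in NCBIM37), was at 569.6 and 195 TPM in the rapamycin tumors, against 0.584 and 0.848 TPM in the vehicle tumors. Both rapamycin tumors were far above vehicle, yet they differed from each other as well, and the log2 fold change was 7.61 ± 1.30 (adjusted p = 0.022). Aoc1, the diamine oxidase that breaks down histamine and putrescine (ENSMUSG00000029811, chromosome 6 from 48845253 to 48859187 in NCBIM37), was at 39.6 and 39.4 TPM in the rapamycin tumors, against 1.12 and 0.0598 TPM in the vehicle tumors. Its rapamycin tumors were nearly equal, and the log2 fold change of 4.76 ± 0.46 (adjusted p = 0.0097) was called in each of the 21 alternatives. Pth1r, the receptor of parathyroid hormone (ENSMUSG00000032492, chromosome 9 from 110624592 to 110649649 in NCBIM37), was at 29.5 and 20.2 TPM in the rapamycin tumors, against 0.566 and 1.05 TPM in the vehicle tumors, with no overlap and a log2 fold change of 3.83 ± 0.29 (adjusted p = 0.0049), also called in each alternative. Ptgds, a synthase of prostaglandin D2, was at 47.8 and 66 TPM in the rapamycin tumors, against 2.89 and 4.33 TPM in the vehicle tumors. That is a log2 fold change of 3.65 ± 0.32 (adjusted p = 0.0086).

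Enzymes of steroid metabolism were also among the 14 genes named on this side. Hsd11b1, which regenerates active glucocorticoid, was at 80.1 and 99.4 TPM in the rapamycin tumors, against 8.18 and 0.772 TPM in the vehicle tumors (log2 fold change 4.48 ± 0.96, adjusted p = 0.034). Srd5a2, which reduces testosterone to dihydrotestosterone, was at 71.5 and 50.3 TPM in the rapamycin tumors, against 0.452 and 5.86 TPM in the vehicle tumors (log2 fold change 4.27 ± 0.71, adjusted p = 0.021). In both genes the vehicle tumors differed from each other about as much as the nearer of them did from the rapamycin tumors. With a tumor left out, Hsd11b1 was called in 2 of 8 fits and Srd5a2 in 5. Further genes of this group were Adamts16, a secreted metalloproteinase (log2 fold change 4.73), Pamr1, a secreted peptidase-domain protein (4.69), Inmt, which methylates indole amines (4.23), Cacna1g, a T-type calcium channel (3.77), Lcn2, a siderophore-binding lipocalin (3.66), Pdzk1ip1 (3.60) and Ncmap (3.50). Sytl2, an effector of vesicle secretion, was at 110.3 and 43.5 TPM in the rapamycin tumors, against 13.3 and 0.797 TPM in the vehicle tumors. Sytl2, Cacna1g and Lcn2 kept their call in 1 of those 8 fits each.

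Among the genes named by rule, which leaves out predicted genes, clones and pseudogenes, Aldh1l2 and Cth had the largest changes on the lower side. Aldh1l2, a mitochondrial folate enzyme (ENSMUSG00000020256, chromosome 10 from 82950195 to 82996885 in NCBIM37), was at 4.72 and 3.1 TPM in the rapamycin tumors, against 91.5 and 199.6 TPM in the vehicle tumors. The groups were far apart, and the log2 fold change of -4.81 ± 0.46 (adjusted p = 0.0097) was called in each of the 21 alternatives. Cth, which releases cysteine from cystathionine (ENSMUSG00000028179, chromosome 3 from 157557212 to 157588041 in NCBIM37), was at 1.92 and 0.899 TPM in the rapamycin tumors, against 91.9 and 35.7 TPM in the vehicle tumors (log2 fold change -4.63 ± 0.46, adjusted p = 0.0097). Its level in the other tumors was low throughout, with 2.24 and 2.7 TPM in tumors with both drugs, against 3.06 and 2.54 TPM in tumors with loratadine, so the vehicle tumors stood above all 6 others. Rrm2, the small subunit of ribonucleotide reductase, was at 9.22 and 15.1 TPM in the rapamycin tumors, against 247 and 145 TPM in the vehicle tumors (log2 fold change -3.89 ± 0.50, adjusted p = 0.014). Adm, the secreted vasodilator adrenomedullin, was at 7.69 and 11.7 TPM in the rapamycin tumors, against 201 and 102 TPM in the vehicle tumors (log2 fold change -3.78 ± 0.48, adjusted p = 0.014). Tnfrsf9, the costimulatory receptor 4-1BB, was at 34.3 and 10.7 TPM in the rapamycin tumors, against 366 and 167 TPM in the vehicle tumors. Its groups did not overlap, with a log2 fold change of -3.61 ± 0.56 (adjusted p = 0.019). The remaining genes were Sh2d6, an adaptor protein (log2 fold change -3.65), Esm1, a proteoglycan of endothelium (-3.48), Gpr141, an orphan receptor (-3.42), and Ccnb1, cyclin B1 (-3.44). Gsta1 (-4.00), Gsta2 (-4.33), Speer4a (-4.14), Speer4b (-3.45) and Serpinb9b (-4.01) belong to families of near-identical genes, and how reads were split among the copies is not known.

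**Figure D2:**
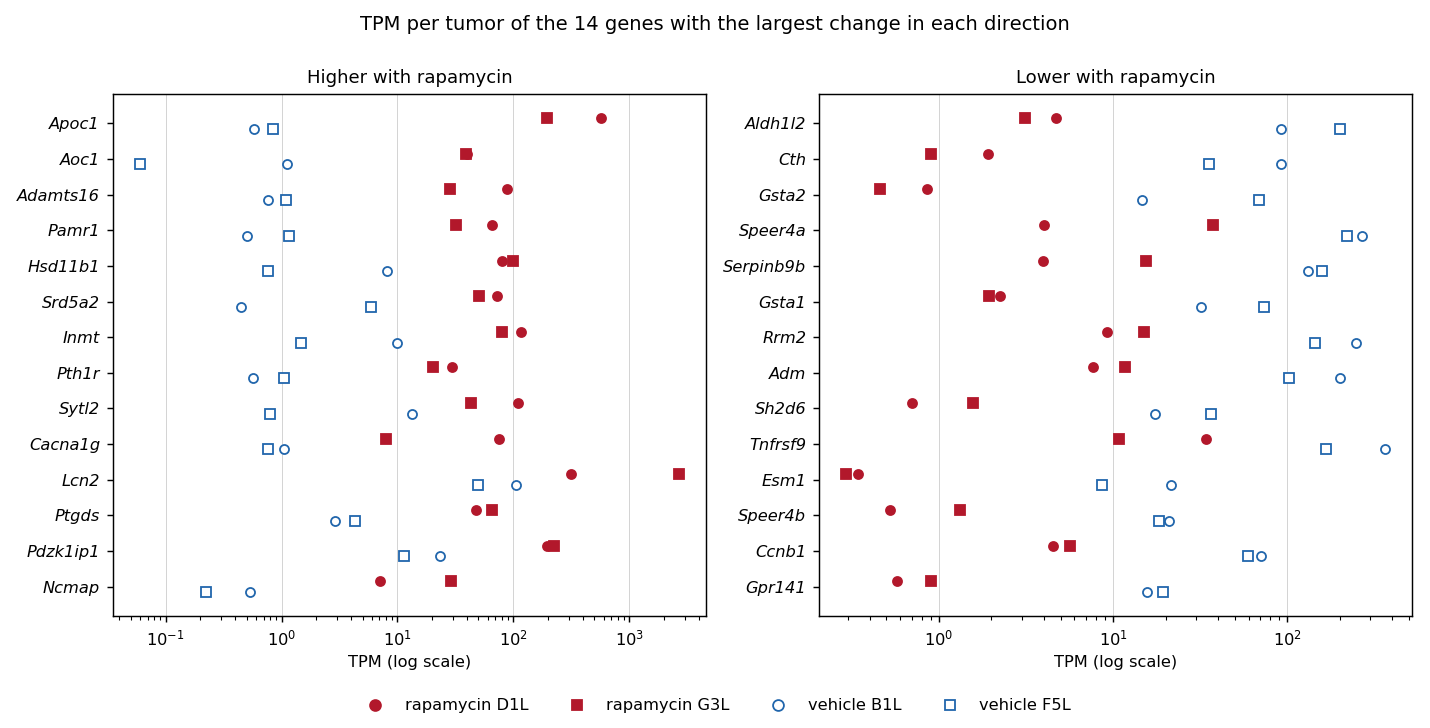
TPM (horizontal axis, log scale) of the 14 genes with the largest change in each direction, predicted genes left out (vertical axis), in rapamycin tumors D1L and G3L (filled) and vehicle tumors B1L and F5L (open). The groups overlap for no gene shown, as the choice of genes required, and the rapamycin tumors lie far apart for Lcn2 and Cacna1g.

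Most genes of mitosis were lower with rapamycin. Of 25 tested genes of mitosis and G2, 17 fell, 0 rose and the median log2 fold change was -2.38, against 0.14 over all genes. Cdk1, the kinase that starts mitosis, was at 30.5 and 24.2 TPM in the rapamycin tumors, against 186 and 222 TPM in the vehicle tumors (log2 fold change -2.86 ± 0.68, adjusted p = 0.042). Its partner Ccnb1 was at 4.53 and 5.65 TPM in the rapamycin tumors, against 70.5 and 59.3 TPM in the vehicle tumors. Neither gene overlapped between groups, and the log2 fold change of Ccnb1 was -3.44 ± 0.62 (adjusted p = 0.024). Bub1, a kinase of the spindle checkpoint, was at 1.69 and 1.99 TPM in the rapamycin tumors, against 22.1 and 26.8 TPM in the vehicle tumors (log2 fold change -3.16 ± 0.43, adjusted p = 0.015). Cdca3, which triggers entry into mitosis, was at 8.13 and 6.23 TPM in the rapamycin tumors, against 77.2 and 56.8 TPM in the vehicle tumors (log2 fold change -3.05 ± 0.53, adjusted p = 0.022). Birc5, Cdc20 and Top2a missed the threshold at log2 fold changes of -2.15, -1.84 and -2.16, and all 25 genes were below vehicle in both rapamycin tumors, as were 22.8% of all genes tested, while 35.5% were above it in both. With single tumors left out, the lower calls of the list numbered 0 without B1L, 1 without F5L, 2 without G3L, 3 without D1L, 6 without B3R or F3R and 24 without A3L or C1R.

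Genes of DNA replication fell in part. Of 26 tested, 7 fell and 0 rose, with a median of -1.17. Mcm2, a subunit of the replicative helicase, was at 13.7 and 10.3 TPM in the rapamycin tumors, against 72 and 44.4 TPM in the vehicle tumors (log2 fold change -2.16 ± 0.33, adjusted p = 0.018). Ccne1, the cyclin of S phase entry, was at 2.3 and 2.79 TPM in the rapamycin tumors, against 17.4 and 13.2 TPM in the vehicle tumors (log2 fold change -2.19 ± 0.33, adjusted p = 0.017). Pcna, the sliding clamp of DNA polymerase, was at 71.3 and 101 TPM in the rapamycin tumors, against 204 and 232 TPM in the vehicle tumors, with a log2 fold change of -1.35 ± 0.31 (adjusted p = 0.038). Each of these genes was lower in both rapamycin tumors. Mcm7, another helicase subunit, had a log2 fold change of -0.27 and Rfc3, of the clamp loader, -0.15, and neither passed. Lower calls of the list numbered 0 without B1L, 2 without F5L or G3L, 3 without D1L, 5 without B3R or F3R and 6 without A3L or C1R, as against 12 with median-of-ratios scaling and 11 with quantile normalization of all tumors. Among 14 inhibitors of cyclin-dependent kinases and cyclins of G1, Cdkn1a, the inhibitor p21, fell with 24 and 32 TPM in the rapamycin tumors, against 96.5 and 154 TPM in the vehicle tumors (log2 fold change -2.10 ± 0.36, adjusted p = 0.022), as did Ccnd2, cyclin D2 (log2 fold change -1.34 ± 0.28, adjusted p = 0.032), and 0 rose.

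The windows around the annotated start sites of these genes were searched for short motifs, in RefSeq promoters (GRCm38.p6, 250 bases before to 50 after the start), on both strands. The CHR element TTTGAA, known as a binding site of cell cycle repressor complexes, was present in 15 of 21 mitosis genes with a window (71.4%), 2 of 20 replication genes (10%) and 20.2% of all 27025 genes. The box CCAAT was present in 18 of 21 mitosis genes (85.7%), 11 of 20 replication genes (55%) and 41.1% of all genes. The E2F letters GGCGGGAA were in 4 of 20 replication genes (20%), 0 of 21 mitosis genes and 2.52% of all genes. The window of Cdk1, shown as a mitosis gene that fell (chr10:69352863-69353162, minus strand), holds TTTGAA 2 times, in capitals, and such a match describes the letters and not binding.
Cdk1: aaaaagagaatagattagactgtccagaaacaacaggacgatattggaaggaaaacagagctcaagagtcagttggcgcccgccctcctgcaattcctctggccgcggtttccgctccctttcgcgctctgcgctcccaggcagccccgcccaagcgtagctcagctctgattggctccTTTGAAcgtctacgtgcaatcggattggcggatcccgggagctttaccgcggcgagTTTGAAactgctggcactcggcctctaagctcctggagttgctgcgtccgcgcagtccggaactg

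Most glycolysis genes were lower with rapamycin. Of 19 tested, 15 fell and 0 rose, with a median log2 fold change of -1.61. Slc2a1, the glucose transporter GLUT1, was at 51.5 and 50 TPM in the rapamycin tumors, against 363 and 235 TPM in the vehicle tumors (log2 fold change -2.50 ± 0.31, adjusted p = 0.014). Gapdh, which oxidizes glyceraldehyde phosphate and is often used as a constant reference gene, was at 1533 and 1536 TPM in the rapamycin tumors, against 9523 and 5873 TPM in the vehicle tumors (log2 fold change -2.28 ± 0.29, adjusted p = 0.014). Tpi1, the triose phosphate isomerase, was at 490.01 and 374 TPM in the rapamycin tumors, against 2515 and 1563 TPM in the vehicle tumors (log2 fold change -2.21 ± 0.29, adjusted p = 0.014). In each of these the rapamycin tumors lay close together and B1L was the highest vehicle tumor. Ldha, which makes lactate, was at 420.3 and 557 TPM in the rapamycin tumors, against 2116 and 1750 TPM in the vehicle tumors (log2 fold change -1.99 ± 0.28, adjusted p = 0.015). Hk1, the first enzyme of the pathway, was at 96.1 and 103 TPM in the rapamycin tumors, against 199.5 and 204 TPM in the vehicle tumors (log2 fold change -1.02 ± 0.22, adjusted p = 0.036). Pdk1, a kinase that inhibits pyruvate dehydrogenase, was at 22.5 and 21.8 TPM in the rapamycin tumors, against 94.6 and 94.1 TPM in the vehicle tumors. Its groups were both tight, with a log2 fold change of -2.04 ± 0.23 (adjusted p = 0.012). Hk2, Slc16a3, Pfkm and Aldoc did not pass, at log2 fold changes of -1.63, -1.71, -0.26 and 0.50. The summed level of the list was 6433 and 6776 TPM in the rapamycin tumors, against 26931 and 20623 TPM in the vehicle tumors. The lower calls in this list numbered 0 without B1L, 6 without F5L, 10 without D1L or G3L, 12 without A3L or C1R and 14 without B3R or F3R. Of 7 pentose phosphate genes, Rpe, an epimerase of the pathway, fell (log2 fold change -0.79 ± 0.18, adjusted p = 0.037). G6pdx, its first enzyme, was at 72.7 and 52.1 TPM in the rapamycin tumors, against 60.1 and 142 TPM in the vehicle tumors, where the groups overlapped.

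Hypoxia response genes fell in part. Of 17 tested, 6 fell and 0 rose, with a median of -1.02. Ero1l, an oxidase of protein folding, was at 56.7 and 55.5 TPM in the rapamycin tumors, against 386 and 398 TPM in the vehicle tumors (log2 fold change -2.78 ± 0.35, adjusted p = 0.014). Bnip3, a mitophagy receptor, was at 93.9 and 71.3 TPM in the rapamycin tumors, against 523 and 435 TPM in the vehicle tumors (log2 fold change -2.53 ± 0.35, adjusted p = 0.015). The others were Adm, Egln3, a prolyl hydroxylase of HIF (-2.37), Bnip3l (-0.98) and P4ha1, a collagen prolyl hydroxylase (-1.02). Hif1a itself, the transcription factor of the response, was at 26.3 and 64.4 TPM in the rapamycin tumors, against 82.7 and 138 TPM in the vehicle tumors. Its groups did not overlap, and the log2 fold change of -1.35 ± 0.45 (adjusted p = 0.09) missed the threshold, as did that of Vegfa, the angiogenic ligand (-1.42 ± 0.37, adjusted p = 0.052). With single tumors left out, the lower calls of the list numbered 0 without B1L, 3 without F5L, 4 without G3L, 5 without B3R, F3R, A3L or C1R and 6 without D1L. The core ACGTG of the hypoxia response element was present in 10 of 12 hypoxia genes with a window (83.3%), 13 of 19 glycolysis genes (68.4%) and 21.8% of all genes. The window of Ldha is shown because it holds several copies (chr7:46845554-46845853, plus strand), with ACGTG and its reverse complement CACGT in capitals, which overlap in CACGTG.
Ldha: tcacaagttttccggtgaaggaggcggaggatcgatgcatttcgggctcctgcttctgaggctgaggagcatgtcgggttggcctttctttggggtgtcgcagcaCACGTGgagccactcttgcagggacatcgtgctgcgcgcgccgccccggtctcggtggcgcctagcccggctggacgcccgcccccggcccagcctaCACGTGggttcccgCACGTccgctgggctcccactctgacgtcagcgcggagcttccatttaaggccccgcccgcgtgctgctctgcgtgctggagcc

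Genes of amino acid synthesis fell in part. ATF4 is a transcription factor that is known to act downstream of amino acid shortage and of mTORC1, and of 21 tested genes of its response and of serine and one-carbon synthesis 9 fell and 0 rose, with a median of -1.50. Atf4 was at 163 and 268 TPM in the rapamycin tumors, against 325 and 517 TPM in the vehicle tumors. It was lower in both rapamycin tumors and missed the threshold (log2 fold change -0.97 ± 0.30, adjusted p = 0.075). Mthfd2, a mitochondrial folate enzyme, was at 17.6 and 27 TPM in the rapamycin tumors, against 182 and 164 TPM in the vehicle tumors (log2 fold change -2.93 ± 0.29, adjusted p = 0.01). Asns, which makes asparagine and was picked after its values were seen for its small standard error, was at 33.8 and 31.6 TPM in the rapamycin tumors, against 259.9 and 243 TPM in the vehicle tumors. That gave a log2 fold change of -2.90 ± 0.15 (adjusted p = 0.0018). In the serine pathway Phgdh (-2.42) and Psph (-2.65) fell, while Psat1 was at 13.4 and 48 TPM in the rapamycin tumors, against 119 and 158 TPM in the vehicle tumors and missed the threshold (-2.38 ± 0.64, adjusted p = 0.0548). The stress genes Ddit3, Trib3 and Chac1 were below vehicle in both rapamycin tumors without passing, and Cbs, Nupr1 and Cebpb had log2 fold changes of 1.61, 0.50 and 0.09. Lower calls of the list numbered 5 without B1L, 7 without F5L, 9 without D1L, B3R, F3R, A3L or C1R and 11 without G3L, as against 15 with median-of-ratios scaling of all tumors.

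Aminoacyl-tRNA synthetases, which load tRNAs with their amino acids, split into those that fell and those that did not. Of 20 cytosolic genes, 11 fell and 1 rose, with a median of -1.03. Gars, for glycine, was at 91.8 and 82.4 TPM in the rapamycin tumors, against 366 and 316 TPM in the vehicle tumors (log2 fold change -1.95 ± 0.19, adjusted p = 0.0097). Aars, for alanine, was at 47.6 and 65.2 TPM in the rapamycin tumors, against 165 and 172 TPM in the vehicle tumors (log2 fold change -1.58 ± 0.18, adjusted p = 0.012). Qars, for glutamine, was at 153 and 165 TPM in the rapamycin tumors, against 102 and 95 TPM in the vehicle tumors. It rose, with a log2 fold change of 0.68 ± 0.14 (adjusted p = 0.032), but was called with quantile normalization and not with median-of-ratios scaling. Hars, for histidine, and Vars, for valine, had log2 fold changes of -0.15 and 0.42 and did not pass. The lower calls in this list numbered 0 without B1L, 3 without F5L, 7 without D1L or G3L and 8 without B3R, F3R, A3L or C1R. Among 14 amino acid transporters, Slc7a5, the leucine carrier LAT1, was at 19.4 and 29.3 TPM in the rapamycin tumors, against 63.5 and 73.7 TPM in the vehicle tumors (log2 fold change -1.48 ± 0.27, adjusted p = 0.024). Slc1a5, a glutamine carrier, was at 52.3 and 39.1 TPM in the rapamycin tumors, against 71.5 and 100.3 TPM in the vehicle tumors (log2 fold change -0.89 ± 0.23, adjusted p = 0.048). Both fell, and the others did not pass. The letters TGATGNAA of the ATF4 site were present in 6 of 19 ATF4 response genes with a window (31.6%), 5 of 12 synthetases (41.7%), 3 of 10 transporters (30%) and 4.51% of all genes. The windows of Asns (chr6:7693160-7693459, minus strand) and Gars (chr6:55037751-55038050, plus strand) are shown as a pair of genes that fell, with the site or its reverse complement in capitals.
Asns: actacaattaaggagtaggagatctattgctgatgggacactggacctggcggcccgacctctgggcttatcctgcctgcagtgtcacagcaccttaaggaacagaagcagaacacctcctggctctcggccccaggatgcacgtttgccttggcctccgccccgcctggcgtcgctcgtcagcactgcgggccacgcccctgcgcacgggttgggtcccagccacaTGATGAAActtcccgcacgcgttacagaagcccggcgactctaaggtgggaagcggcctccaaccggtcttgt
Gars: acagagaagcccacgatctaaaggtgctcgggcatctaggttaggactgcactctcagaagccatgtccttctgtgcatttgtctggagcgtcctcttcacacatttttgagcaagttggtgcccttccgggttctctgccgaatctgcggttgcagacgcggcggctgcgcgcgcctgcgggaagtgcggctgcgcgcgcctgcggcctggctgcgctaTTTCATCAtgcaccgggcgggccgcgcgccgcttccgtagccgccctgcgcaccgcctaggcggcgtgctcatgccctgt

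Sterol synthesis genes fell in part, and no fatty acid synthesis gene was called. Of 24 genes of sterol synthesis and uptake, 10 fell and 0 rose, with a median of -1.47. Idi1, the isomerase of isoprenoid units, was at 6.13 and 15.8 TPM in the rapamycin tumors, against 53.4 and 62.8 TPM in the vehicle tumors (log2 fold change -2.43 ± 0.52, adjusted p = 0.034). Lss, which closes the sterol rings, was at 9.16 and 5.99 TPM in the rapamycin tumors, against 31.2 and 43.9 TPM in the vehicle tumors (log2 fold change -2.18 ± 0.37, adjusted p = 0.022). The groups did not overlap in these genes, and D1L was the lower rapamycin tumor in the mean of the list, at 3.87 against 4.39 in G3L on the log2(TPM + 1) scale. With single tumors left out, the lower calls of the list numbered 0 without B1L, 1 without F5L, 3 without D1L, B3R or F3R, 6 without A3L or C1R and 7 without G3L. Of 15 fatty acid genes 0 passed, with a median of -0.15. Srebf1, the transcription factor of that pathway, was at 80.6 and 65.9 TPM in the rapamycin tumors, against 72.5 and 61.2 TPM in the vehicle tumors (log2 fold change 0.13 ± 0.21, adjusted p = 0.71). Fasn, the synthase, was at 162 and 108 TPM in the rapamycin tumors, against 106 and 128 TPM in the vehicle tumors (0.18 ± 0.31, adjusted p = 0.71), where the groups overlapped. The letters TCACNCCAC of the SREBP site were present in 1 of 16 sterol genes with a window (6.25%), 0 of 12 fatty acid genes and 1.44% of all genes. The sterol gene was Hmgcs1, which did not pass (-0.48 ± 0.34, adjusted p = 0.36), while CCAAT was in 15 of 16 sterol genes (93.8%).

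Genes of the translation machinery were taken by their parts. Of 28 cytosolic ribosomal protein genes 0 passed, with a median of 0.23, which became 0.02 with median-of-ratios scaling. Their summed level was 45435 and 39101 TPM in the rapamycin tumors, against 37773 and 32710 TPM in the vehicle tumors. Rps3, of the small subunit, was at 1236 and 847 TPM in the rapamycin tumors, against 1304 and 1124 TPM in the vehicle tumors, where the groups overlapped. Among 18 initiation factors and their inhibitors 3 fell and 0 rose, set beside 5.21% and 6.65% of all genes. Eif4e, the cap-binding protein, was at 108 and 101 TPM in the rapamycin tumors, against 219.9 and 225 TPM in the vehicle tumors (log2 fold change -1.08 ± 0.18, adjusted p = 0.02). Eif2s1, the alpha subunit of eIF2, was at 38.3 and 30.7 TPM in the rapamycin tumors, against 123 and 129 TPM in the vehicle tumors (log2 fold change -1.85 ± 0.23, adjusted p = 0.014). Eif4ebp1, the inhibitor of Eif4e that mTORC1 phosphorylates, was at 95.1 and 162 TPM in the rapamycin tumors, against 304 and 340.5 TPM in the vehicle tumors. It fell by a log2 fold change of -1.37 ± 0.30 (adjusted p = 0.035). Lower calls of the list numbered 0 without B1L or F5L, 2 without D1L, G3L, A3L or C1R and 3 without B3R or F3R. Of 20 genes of ribosome assembly Nop2 (-1.30 ± 0.28, adjusted p = 0.034) and Nop58 (-0.92 ± 0.22, adjusted p = 0.042) fell, set beside 5.21% of all genes. With median-of-ratios scaling 9 genes did, where 1399 of all 15095 genes tested were lower. Initiation factors had 8 lower calls under that scaling.

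In the mitochondrial and proteasome lists the share of genes called was near or below that of all genes. Of 25 nuclear respiratory chain genes, Cycs, cytochrome c, fell with 38.7 and 35.5 TPM in the rapamycin tumors, against 199 and 135 TPM in the vehicle tumors (log2 fold change -2.11 ± 0.27, adjusted p = 0.014), as did Cox5a (-0.72 ± 0.18, adjusted p = 0.045), with a median of -0.13 for the list. The 13 protein genes of the mitochondrial genome had a median of -0.48, with 0 past the threshold, and summed to 55544 and 53570 TPM in the rapamycin tumors, against 78404 and 74728 TPM in the vehicle tumors. Of 20 mitochondrial ribosomal protein genes Mrpl24 rose (0.67 ± 0.15, adjusted p = 0.038) and Mrps22 fell (-0.97 ± 0.24, adjusted p = 0.044). Of 22 proteasome genes Psma7 rose (0.60 ± 0.15, adjusted p = 0.048) and Psmd11 fell (-0.75 ± 0.16, adjusted p = 0.034). Mrpl24 and Psma7 were not called with median-of-ratios scaling. In 19 genes of purine and pyrimidine synthesis Gart, of the purine pathway, rose (0.82 ± 0.20, adjusted p = 0.043) and lost this call under that scaling, where 2 others fell. Without B1L the lists of this paragraph had 0 calls in either direction.

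Redox genes went both ways. Of 19 targets of NRF2 and glutathione genes 7 fell and 2 rose, with a median of -1.05. Hmox1, heme oxygenase, was at 212 and 52.8 TPM in the rapamycin tumors, against 860.03 and 615 TPM in the vehicle tumors (log2 fold change -2.77 ± 0.57, adjusted p = 0.032). Gsta4, a transferase that clears lipid peroxides, was at 42.1 and 35.6 TPM in the rapamycin tumors, against 259 and 218 TPM in the vehicle tumors (log2 fold change -2.59 ± 0.20, adjusted p = 0.0049). Gsta3, of the same family, was at 157 and 159.6 TPM in the rapamycin tumors, against 34 and 20.6 TPM in the vehicle tumors. Here the rapamycin tumors were the higher ones, with a log2 fold change of 2.53 ± 0.29 (adjusted p = 0.012), and Gstm1 likewise rose (1.87 ± 0.35, adjusted p = 0.025). Nqo1, a usual readout of NRF2, was at 2.45 and 6.01 TPM in the rapamycin tumors, against 6.7 and 14.1 TPM in the vehicle tumors and missed the threshold (-1.13 ± 0.50, adjusted p = 0.17). The lower calls in this list numbered 3 without B1L or F5L, 4 without G3L and 5 without D1L, B3R, F3R, A3L or C1R. The antioxidant letters TGACNNNGC were present in 5 of 15 windows of the list (33.3%) and in 14% of all genes.

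Lysosome genes fell in part. Of 28 genes of lysosome and V-ATPase, the proton pump, 6 fell and 0 rose, with a median of -0.29. Ctsl, a cathepsin, was at 547 and 537 TPM in the rapamycin tumors, against 1933 and 2302 TPM in the vehicle tumors (log2 fold change -1.96 ± 0.31, adjusted p = 0.02). Gla, an alpha-galactosidase, was at 14.7 and 11.4 TPM in the rapamycin tumors, against 52.9 and 61 TPM in the vehicle tumors (log2 fold change -2.05 ± 0.20, adjusted p = 0.0097). Gpnmb, a glycoprotein used as a marker of LAM cells, was at 49 and 33.7 TPM in the rapamycin tumors, against 155 and 312 TPM in the vehicle tumors (log2 fold change -2.41 ± 0.51, adjusted p = 0.033). The pump subunits Atp6v1a (-1.10), Atp6v1b2 (-0.91) and Atp6v1h (-0.91) were the others, while Lamp1, a membrane protein, was at 473 and 686 TPM in the rapamycin tumors, against 505 and 636 TPM in the vehicle tumors, where the groups overlapped. With single tumors left out, the lower calls of the list numbered 0 without B1L, 1 without F5L, 3 without D1L, 4 without A3L or C1R, 5 without G3L and 6 without B3R or F3R, as against 10 with median-of-ratios scaling of all tumors. Of 20 autophagy genes 1 rose and 0 fell, set beside 6.65% and 5.21% of all genes. It was Gabarapl1, which coats autophagosomes, with 354 and 363 TPM in the rapamycin tumors, against 109.8 and 58.7 TPM in the vehicle tumors (log2 fold change 2.14 ± 0.38, adjusted p = 0.023). Ulk1, the kinase that starts the process, was at 36.4 and 25 TPM in the rapamycin tumors, against 16 and 19.2 TPM in the vehicle tumors without passing (0.75 ± 0.29, adjusted p = 0.13). The letters TCACGTGA of the lysosomal CLEAR motif, which contain ACGTG, were present in 6 of 20 lysosome windows (30%), 0 of 16 autophagy windows and 1.12% of all genes.

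Of 20 genes of the TSC and mTOR complexes 1 rose and 2 fell, set beside 6.65% and 5.21% of all genes. Deptor, an mTOR inhibitor bound to both complexes, rose with 27.8 and 12 TPM in the rapamycin tumors, against 3.08 and 4.99 TPM in the vehicle tumors (log2 fold change 1.97 ± 0.47, adjusted p = 0.043). Rragc, a GTPase that brings mTORC1 to the lysosome, was at 53 and 67.7 TPM in the rapamycin tumors, against 116 and 108 TPM in the vehicle tumors (log2 fold change -0.89 ± 0.18, adjusted p = 0.03). Fnip1, its regulator with folliculin, was at 22.2 and 19.7 TPM in the rapamycin tumors, against 34.6 and 35.4 TPM in the vehicle tumors (log2 fold change -0.72 ± 0.18, adjusted p = 0.0495). Both were lower with rapamycin. Neither Deptor, Rragc nor Fnip1 was called without B1L or without F5L. In 20 genes of receptor and insulin signalling, Igf1, the growth factor, was at 217 and 79 TPM in the rapamycin tumors, against 7.38 and 29.97 TPM in the vehicle tumors (log2 fold change 3.04 ± 0.70, adjusted p = 0.04). Pik3ip1, which inhibits PI3-kinase, was at 97.1 and 88.4 TPM in the rapamycin tumors, against 41.6 and 45.6 TPM in the vehicle tumors (log2 fold change 1.07 ± 0.26, adjusted p = 0.042). Both rose. Ddit4, a stress-induced inhibitor of mTORC1, was at 116 and 66.4 TPM in the rapamycin tumors, against 342 and 343 TPM in the vehicle tumors (log2 fold change -1.95 ± 0.30, adjusted p = 0.019). Cited2, a coactivator partner induced by growth factors, was at 122 and 83.3 TPM in the rapamycin tumors, against 359 and 217 TPM in the vehicle tumors (log2 fold change -1.46 ± 0.28, adjusted p = 0.028). Both fell, and Irs1, the insulin receptor substrate, was at 2.25 and 0.764 TPM in the rapamycin tumors, against 1.89 and 4.66 TPM in the vehicle tumors, where the groups overlapped.

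**Figure D3:**
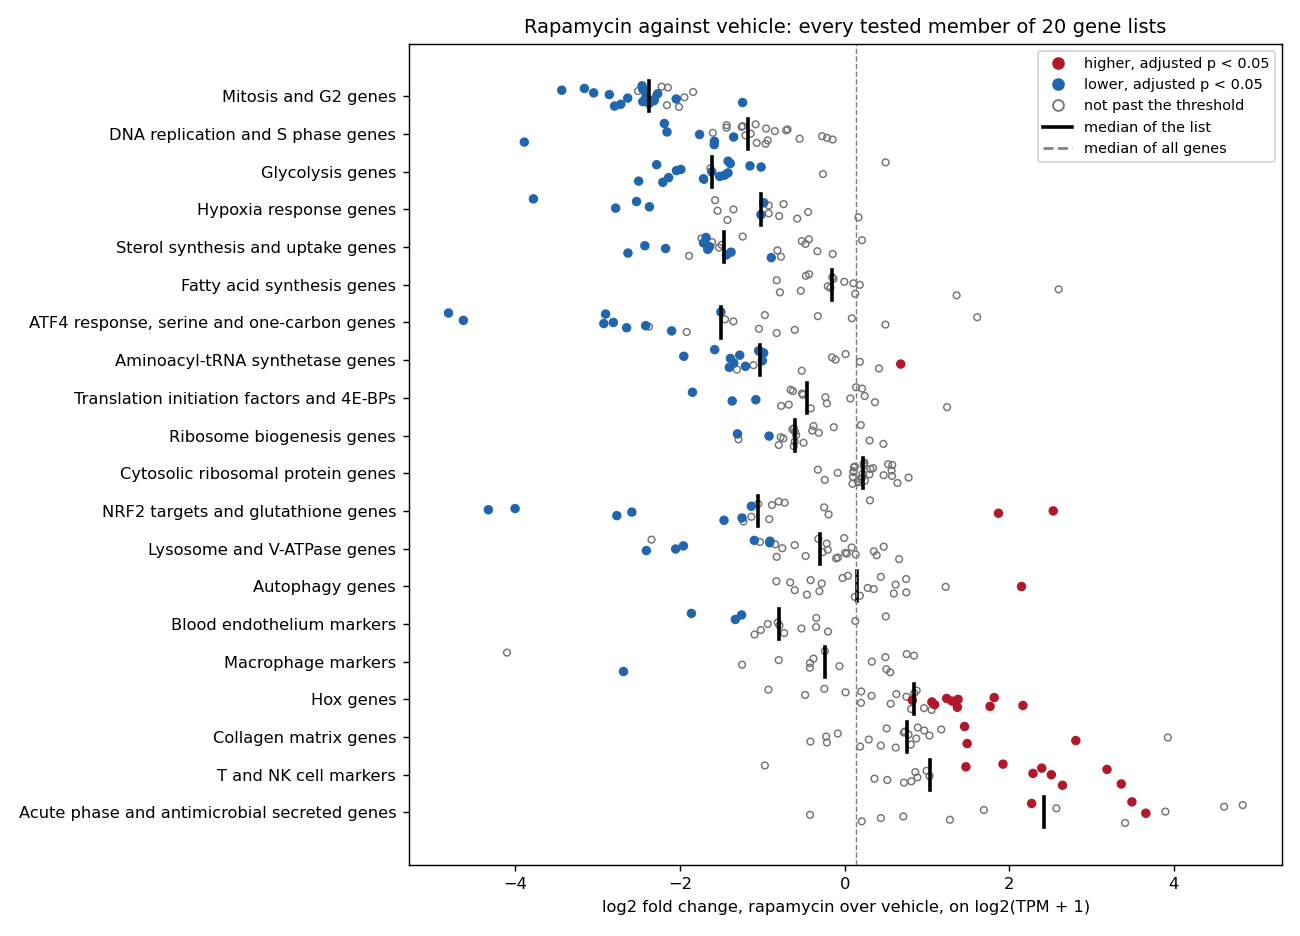
Log2 fold change of rapamycin over vehicle (horizontal axis) for every tested member of 20 lists (vertical axis), where filled points passed an adjusted p of 0.05, bars are list medians and the dashed line is the median of all genes, 0.14. Mitosis, glycolysis and ATF4 lists lie on the lower side, ribosomal protein genes close to the median of all genes, and Hox genes and T cell markers on the higher side.

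Hox genes, which set position along the body axis, were higher with rapamycin in part. Of 25 tested, 10 rose and 0 fell, with a median of 0.85. With median-of-ratios scaling of all tumors 8 rose, and with quantile normalization 7. Hoxc8 was at 19.4 and 24.4 TPM in the rapamycin tumors, against 3.28 and 5.04 TPM in the vehicle tumors (log2 fold change 2.17 ± 0.36, adjusted p = 0.021). Hoxb4 was at 45.4 and 38 TPM in the rapamycin tumors, against 11.7 and 10.5 TPM in the vehicle tumors (log2 fold change 1.82 ± 0.34, adjusted p = 0.025), and neither gene overlapped between groups. Hoxc9 was at 23.8 and 43.3 TPM in the rapamycin tumors, against 7.19 and 10.6 TPM in the vehicle tumors (log2 fold change 1.77 ± 0.33, adjusted p = 0.025). The 10 were Hoxb4 to Hoxb9, Hoxc6, Hoxc8, Hoxc9 and Hoxd3, and no gene of cluster A was among them, where Hoxa9, Hoxa10 and Hoxa11 had log2 fold changes of -0.48, -0.25 and -0.93. A difference between the clusters was not tested. Higher calls of the list numbered 0 without B1L, F5L or G3L, 4 without D1L, 5 without A3L or C1R and 6 without B3R or F3R.

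Matrix and signal ligand genes had a few members that rose, set beside 6.65% of all genes tested. Of 22 genes of the collagen matrix 3 rose and 0 fell, with a median of 0.75. Fmod, a proteoglycan on collagen fibrils, was at 12.7 and 13 TPM in the rapamycin tumors, against 1.46 and 0.592 TPM in the vehicle tumors (log2 fold change 2.81 ± 0.39, adjusted p = 0.015). Bgn, of the same family, was at 366 and 293 TPM in the rapamycin tumors, against 140.3 and 100.4 TPM in the vehicle tumors (log2 fold change 1.46 ± 0.20, adjusted p = 0.015). Loxl1, which crosslinks elastin, was at 36.8 and 40.2 TPM in the rapamycin tumors, against 14 and 12.2 TPM in the vehicle tumors (log2 fold change 1.49 ± 0.31, adjusted p = 0.032). Col1a1, the main chain of type I collagen, was at 174 and 311 TPM in the rapamycin tumors, against 125 and 84.2 TPM in the vehicle tumors and missed the threshold (1.17 ± 0.35, adjusted p = 0.07). Among 15 matrix proteases and inhibitors Mmp2, a gelatinase, rose with 84 and 143 TPM in the rapamycin tumors, against 12.9 and 21.3 TPM in the vehicle tumors (log2 fold change 2.65 ± 0.53, adjusted p = 0.03), as did Mmp23 (1.88 ± 0.41, adjusted p = 0.034) and Adamts16. Among 21 genes of TGF-beta and BMP signalling Bmp4 (2.52 ± 0.56, adjusted p = 0.036), Smad6, an inhibitor of the BMP pathway (1.58 ± 0.25, adjusted p = 0.019), and Tgfb3 (1.11 ± 0.18, adjusted p = 0.021) rose. Among 20 Wnt genes Dkk3 (2.09 ± 0.36, adjusted p = 0.022) and the ligand Wnt9a (1.23 ± 0.29, adjusted p = 0.041) rose. Each of these 4 lists had 0 higher calls without B1L and 0 without F5L. Of 11 smooth muscle markers 1 rose and 0 fell, with a median of 0.28. It was Mylk, the kinase that makes smooth muscle contract, with 107 and 79.8 TPM in the rapamycin tumors, against 14.4 and 10.7 TPM in the vehicle tumors (log2 fold change 2.80 ± 0.39, adjusted p = 0.015). Acta2, smooth muscle actin, was at 114 and 55.3 TPM in the rapamycin tumors, against 76.4 and 98.1 TPM in the vehicle tumors, where the groups overlapped. Of 8 genes that mark LAM and the melanocyte lineage, Gpnmb fell and Esr1, the estrogen receptor, rose with 4.4 and 2.17 TPM in the rapamycin tumors, against 0.299 and 0.33 TPM in the vehicle tumors (log2 fold change 1.65 ± 0.34, adjusted p = 0.032).

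Markers of T and NK cells were in part higher in the rapamycin tumors, at low levels. Of 17 tested, 8 rose and 0 fell, with a median of 1.03, and their summed level was 57 and 172 TPM in the rapamycin tumors, against 19.6 and 17.8 TPM in the vehicle tumors. With median-of-ratios scaling or quantile normalization 6 rose. Cd3g, a chain of the T cell receptor complex, was at 8.47 and 29.8 TPM in the rapamycin tumors, against 1.14 and 0.645 TPM in the vehicle tumors (log2 fold change 3.19 ± 0.54, adjusted p = 0.021). Cd8b1, of the coreceptor of cytotoxic cells, was at 3.96 and 9.67 TPM in the rapamycin tumors, against 0.191 and 0.369 TPM in the vehicle tumors (log2 fold change 2.51 ± 0.47, adjusted p = 0.025). Nkg7, of their granules, was at 8.64 and 35.5 TPM in the rapamycin tumors, against 0.838 and 0.811 TPM in the vehicle tumors (log2 fold change 3.36 ± 0.57, adjusted p = 0.021). G3L was above D1L in each of these, and both were above the vehicle tumors. Cd4, of the coreceptor of helper cells, was at 2.15 and 6.79 TPM in the rapamycin tumors, against 1.31 and 1.67 TPM in the vehicle tumors. Cd28, a costimulatory receptor, was below vehicle in both rapamycin tumors (-0.97 ± 0.61, adjusted p = 0.31), and neither passed. The higher calls in this list numbered 0 without B1L or F5L, 3 without G3L, 4 without A3L or C1R, 5 without F3R, 6 without B3R and 8 without D1L. Among 19 chemokines 2 rose and 1 fell, near the shares of 6.65% and 5.21% of all genes. Ccl5, which draws T cells, rose with 38.5 and 128 TPM in the rapamycin tumors, against 10.7 and 15 TPM in the vehicle tumors (log2 fold change 2.38 ± 0.54, adjusted p = 0.038). Cxcl16 also rose (1.78 ± 0.41, adjusted p = 0.039), and Ccl9 fell (-1.77 ± 0.42, adjusted p = 0.042).

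Other immune lists had shares of calls near or below those of all genes. Of 15 macrophage markers 1 fell, with a median of -0.24. It was Nos2, the inducible nitric oxide synthase, at 0.303 and 1.16 TPM in the rapamycin tumors, against 8.36 and 11.5 TPM in the vehicle tumors (log2 fold change -2.69 ± 0.36, adjusted p = 0.014). Arg1, arginase, which competes for the same substrate, was at 4.87 and 11.8 TPM in the rapamycin tumors, against 169.7 and 129 TPM in the vehicle tumors. The groups did not overlap, and with a log2 fold change of -4.10 ± 1.17 (adjusted p = 0.063) it missed the threshold. Adgre1, the marker F4/80, was at 18.3 and 28.7 TPM in the rapamycin tumors, against 14.3 and 51.4 TPM in the vehicle tumors, where they did overlap. Of 26 genes of interferon response and antigen presentation Rsad2, an antiviral enzyme, fell (-2.26 ± 0.52, adjusted p = 0.039), and 5 rose when D1L was left out. The 12 markers of fibroblasts and pericytes and 13 basement membrane genes gave 0 calls, with medians of 0.68 and -0.13. The 8 neutrophil, 7 dendritic cell and 3 B and plasma cell markers tested gave 0 calls, with medians of -0.53, 0.64 and 0.47.

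Some endothelial and most red cell genes were lower with rapamycin. Of 15 markers of blood endothelium 3 fell and 0 rose, with a median of -0.79 and a summed level of 94 and 115 TPM in the rapamycin tumors, against 192 and 150.4 TPM in the vehicle tumors. Cdh5, the cadherin of vessel walls, was at 3.81 and 2.9 TPM in the rapamycin tumors, against 17.8 and 12.2 TPM in the vehicle tumors (log2 fold change -1.86 ± 0.36, adjusted p = 0.028). Cldn5, of their tight junctions, was at 3.7 and 4.14 TPM in the rapamycin tumors, against 13.7 and 8.32 TPM in the vehicle tumors (log2 fold change -1.25 ± 0.30, adjusted p = 0.042). Emcn, a sialomucin of venous endothelium, was at 3.1 and 3.38 TPM in the rapamycin tumors, against 9.56 and 9.71 TPM in the vehicle tumors (log2 fold change -1.33 ± 0.33, adjusted p = 0.047). Pecam1, another marker, was at 11.8 and 17.5 TPM in the rapamycin tumors, against 21.4 and 16.1 TPM in the vehicle tumors, where the groups overlapped. Of 4 red cell genes 3 fell: Hba-a1, a hemoglobin alpha chain, was at 12.5 and 10.4 TPM in the rapamycin tumors, against 88.4 and 47.8 TPM in the vehicle tumors (log2 fold change -2.41 ± 0.47, adjusted p = 0.028), and the beta chain genes Hbb-bs (-2.25 ± 0.56, adjusted p = 0.047) and Hbb-bt (-1.98 ± 0.48, adjusted p = 0.043) are near-identical copies. With single tumors left out, the lower calls of the list numbered 0 without B1L, F5L, D1L or G3L and 1 without B3R, F3R, A3L or C1R, and the red cell calls numbered 0 without B1L, F5L, D1L or G3L, 1 without B3R or F3R and 3 without A3L or C1R. With either other scaling 5 endothelial genes fell.

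Acute phase genes rose in part and varied between the rapamycin tumors. Of 14 acute phase and antimicrobial genes 3 rose and 0 fell, with a median of 2.42. With median-of-ratios scaling 2 rose, and with quantile normalization 3. C3, the central complement protein, was at 3168 and 1300 TPM in the rapamycin tumors, against 103 and 313 TPM in the vehicle tumors (log2 fold change 3.49 ± 0.88, adjusted p = 0.048). Cp, the copper carrier ceruloplasmin, was at 1077 and 881 TPM in the rapamycin tumors, against 142 and 284 TPM in the vehicle tumors (log2 fold change 2.27 ± 0.32, adjusted p = 0.015). Lcn2 was at 315 and 2688 TPM in the rapamycin tumors, against 105 and 49.5 TPM in the vehicle tumors (log2 fold change 3.66 ± 0.93, adjusted p = 0.048). G3L was the higher rapamycin tumor for Lcn2 and D1L for C3 and Cp. Higher calls of the list numbered 0 without B1L, 1 without A3L or C1R, 2 without F5L, B3R or F3R, 3 without G3L and 4 without D1L. Of 12 lipid transport genes 3 rose and 1 fell, with a median of 0.72. Besides Apoc1, Apod, a lipocalin that binds small lipids (2.12 ± 0.39, adjusted p = 0.024), and Mylip, a ubiquitin ligase (1.62 ± 0.29, adjusted p = 0.024), rose, and Fabp5, a fatty acid binding protein, fell (-1.61 ± 0.33, adjusted p = 0.032). Of 18 chaperones and genes of the unfolded protein response 1 rose and 0 fell, set beside 6.65% and 5.21% of all genes. It was the transcription factor Xbp1, with 216 and 158 TPM in the rapamycin tumors, against 79.2 and 98.2 TPM in the vehicle tumors (log2 fold change 1.06 ± 0.21, adjusted p = 0.03). Hspa5, the chaperone BiP, was at 508 and 391 TPM in the rapamycin tumors, against 401 and 604 TPM in the vehicle tumors, where the groups overlapped. Of 14 circadian clock genes 0 passed. The epidermal gene Sbsn rose (1.44 ± 0.36, adjusted p = 0.046) and was not called with either other scaling.

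Prostaglandin and histamine genes were set beside each other since Aoc1 and Ptgds were among the largest changes. Of 14 prostaglandin genes tested 1 rose and 2 fell, with a median of 0.34, set beside 6.65% and 5.21% of all genes. Ptgs2, the inducible cyclooxygenase, was at 1.65 and 1.02 TPM in the rapamycin tumors, against 6.06 and 6.36 TPM in the vehicle tumors (log2 fold change -1.64 ± 0.26, adjusted p = 0.019). Pla2g4a, the phospholipase that frees arachidonic acid, was at 9.22 and 10.3 TPM in the rapamycin tumors, against 41.4 and 35.1 TPM in the vehicle tumors (log2 fold change -1.87 ± 0.21, adjusted p = 0.012). Both fell, and Ptgs1, the constitutive cyclooxygenase, was at 114 and 156 TPM in the rapamycin tumors, against 147 and 139 TPM in the vehicle tumors, where the groups overlapped. Hdc, which makes histamine, was at 5.6 and 3.93 TPM in the rapamycin tumors, against 2.34 and 1.11 TPM in the vehicle tumors. It was higher in both rapamycin tumors without passing the threshold (1.10 ± 0.36, adjusted p = 0.083). Of 7 histamine genes tested, Aoc1 was the 1 that passed.

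The rapamycin tumors differed from each other more than the vehicle tumors did. Among genes with a mean of at least 10 TPM over the pair, 227 of 9265 differed by a log2 gap of 2 or more between D1L and G3L, against 75 of 8950 between B1L and F5L. With 1 tumor each, these gaps have no replicate check. Ltf, the secreted iron-binding protein lactoferrin, was at 3.1 and 2716 TPM in the rapamycin tumors, against 8.49 and 1.67 TPM in the vehicle tumors. Umod, a protein of the renal tubule, was at 0.666 and 144 TPM in the rapamycin tumors, against 0.412 and 0.0416 TPM in the vehicle tumors, and Muc1, a mucin, at 2.16 and 328 TPM in the rapamycin tumors, against 8.14 and 3.88 TPM in the vehicle tumors. G3L was high in these genes and D1L was near the vehicle tumors. Ltf was also high in the remaining tumors, with 1016 and 588 TPM in tumors with both drugs, against 167 and 299.5 TPM in tumors with loratadine. So was Muc1, with 78.3 and 43.1 TPM in tumors with both drugs, against 57.6 and 139.7 TPM in tumors with loratadine. Umod was at 62.6 and 85.3 TPM in tumors with both drugs, against 19.2 and 38.2 TPM in tumors with loratadine. Epcam, an epithelial adhesion protein, was at 3.95 and 86.1 TPM in the rapamycin tumors, against 3.18 and 0.349 TPM in the vehicle tumors (log2 fold change 3.13 ± 1.28, adjusted p = 0.14), and of 20 epithelial genes 0 passed, while 7 did without D1L. The mean of that list on the log2(TPM + 1) scale was 3.74 in D1L and 5.83 in G3L, against 3.91 in B1L and 3.74 in F5L. In the remaining tumors it was 5.03 in A3L, 4.47 in C1R, 4.76 in B3R and 5.68 in F3R. Sprr2a2, Khdc1a, Scara3, Cbr2 and Cyp2f2 were the other genes of this kind, with at least 60 TPM in G3L and under 1.5 TPM in D1L.

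Of the rapamycin tumors, D1L instead was the one with high markers of fat cells. Cfd, the complement factor adipsin, was at 81.3 and 0.871 TPM in the rapamycin tumors, against 0.188 and 0.294 TPM in the vehicle tumors. Car3, a carbonic anhydrase of fat and muscle, was at 35.8 and 0.607 TPM in the rapamycin tumors, against 0.188 and 0.82 TPM in the vehicle tumors, and Adipoq, adiponectin, at 9.79 and 0.309 TPM in the rapamycin tumors, against 0.133 and 0.0452 TPM in the vehicle tumors. G3L was near the vehicle tumors here, and of 12 adipocyte markers 0 passed, with list means of 3.27 in D1L and 1.45 in G3L, against 1.58 in B1L and 1.66 in F5L. Mast cell proteases were higher in G3L than in D1L. Cma1, chymase, was at 11.3 and 121 TPM in the rapamycin tumors, against 2.07 and 15.7 TPM in the vehicle tumors, and Cpa3, a carboxypeptidase, at 9.13 and 58.1 TPM in the rapamycin tumors, against 1.45 and 12.6 TPM in the vehicle tumors. Of 10 mast cell markers 0 passed, and 3 did without D1L. Other genes high in D1L were Defb28, Zim1, Fmo2, Pde2a, Slc35f1 and Fabp4. The part of these cell types in the differences between rapamycin and vehicle was not tested.

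**Figure D4:**
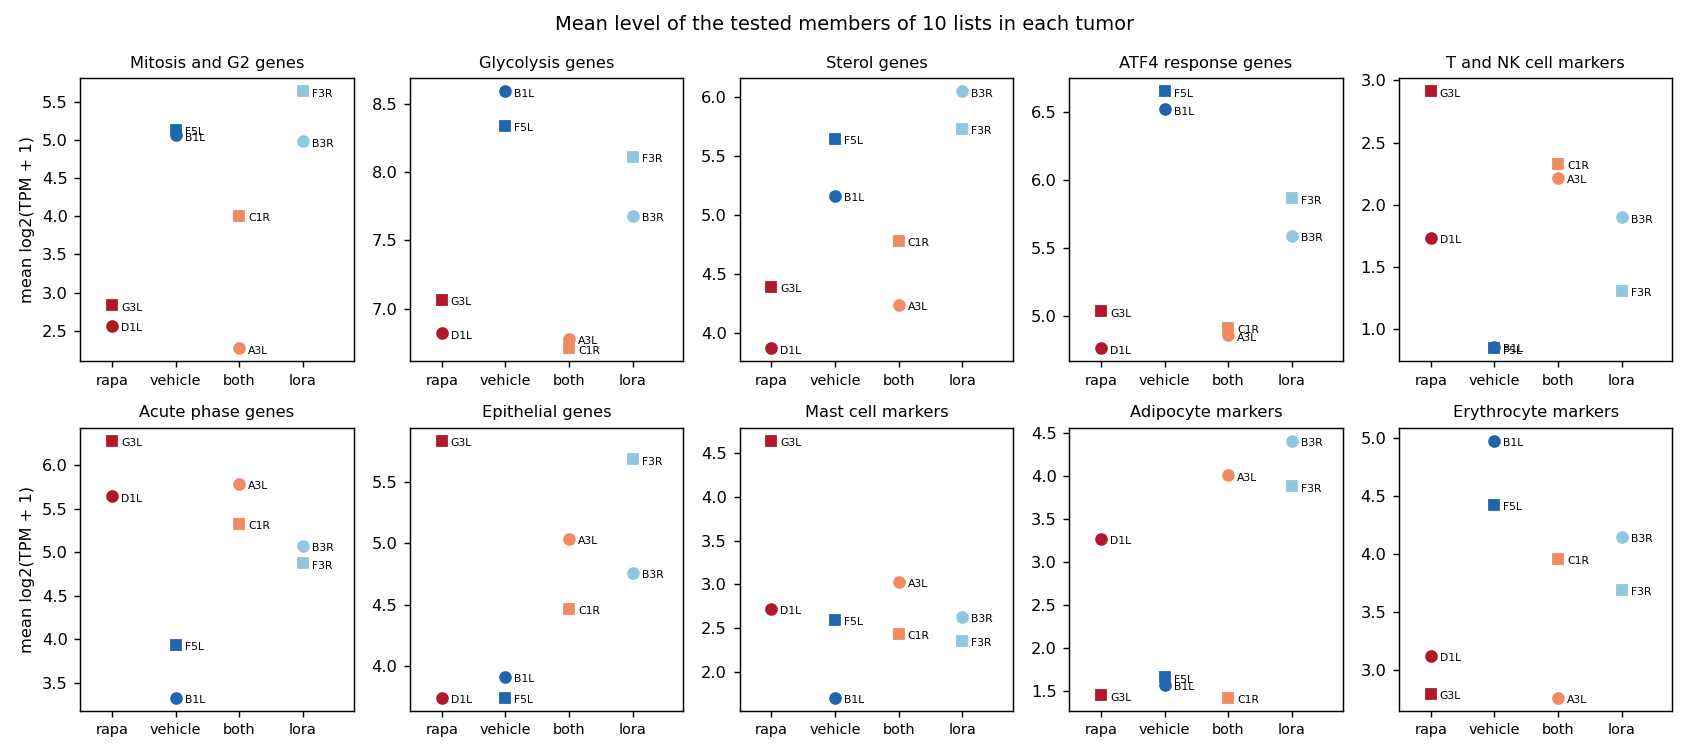
Mean log2(TPM + 1) over the tested members of 10 lists (vertical axis, not starting at 0) in each of the 8 tumors, by treatment: rapamycin, vehicle, both drugs and loratadine (horizontal axis). The rapamycin tumors lie below vehicle for mitosis, glycolysis, sterol, ATF4 and red cell lists, and apart from each other for the epithelial, mast cell and adipocyte lists.

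The 4 tumors that took no part in the contrast gave a second measurement of rapamycin, on a background of loratadine. Of the 1004 genes that were higher with rapamycin, 867 (86.4%) lay higher in both A3L and C1R, with both drugs, than in B3R and F3R, with loratadine, against 33.8% of all genes, and 6 lay the other way. Of the 786 lower genes, 687 (87.4%) lay lower in both, against 20.7% of all genes, and 0 lay the other way. The 8 tumors share a single estimate of the spread, and the tumors of this contrast are not those of the first. A gene passes the first contrast more readily where the tumor pairs of this one lie close together. Closeness within a pair also makes overlap less likely, so the shares of all genes are not a matched baseline for the called genes. The codes of B3R and F3R begin with the letters of the vehicle tumors, and those of the tumors with both drugs with A and C, so if the letters stand for cages, both contrasts share the cages of the tumors without rapamycin, and cage and drug cannot be told apart here either. The median log2 fold change of both drugs over loratadine was 0.64 for the higher genes, against 1.33 for rapamycin over vehicle, and -0.65 against -1.35 for the lower genes. The genes were chosen by the first contrast, so these medians do not show that the contrasts differ in size. At an unadjusted p under 0.05, 546 of the higher and 477 of the lower genes passed in the second contrast, where 0 genes (0%) passed at an adjusted p under 0.05 with limma and 2204 of the 15095 were under an unadjusted 0.05. The difference between both contrasts, as an interaction term, passed for 1 gene (0.00662%), with 719 under an unadjusted 0.05.

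By list, mitosis genes had a median of -2.24 for both drugs over loratadine against -2.38 for rapamycin over vehicle, and sterol genes -1.46 against -1.47. The tumors with both drugs lay apart in mitosis genes. The list mean on the log2(TPM + 1) scale was 2.27 in A3L and 4.01 in C1R, against 4.99 in B3R and 5.64 in F3R. Glycolysis genes had -1.24 against -1.61, ATF4 response genes -0.88 against -1.50, and T and NK cell markers 0.61 against 1.03. For some genes the loratadine tumors already differed from vehicle. Ptgds was at 88.8 and 50.5 TPM in tumors with both drugs, against 69.7 and 61.7 TPM in tumors with loratadine, and its log2 fold change was 0.03 there. Srd5a2 was at 49.6 and 29.4 TPM in tumors with both drugs, against 41.6 and 20.5 TPM in tumors with loratadine (log2 fold change 0.38). Gapdh kept its direction at 1286 and 1133 TPM in tumors with both drugs, against 2983 and 3681 TPM in tumors with loratadine (log2 fold change -1.46), and so did Pth1r at 34.8 and 27.8 TPM in tumors with both drugs, against 4.66 and 3.85 TPM in tumors with loratadine (log2 fold change 2.62). None of these named genes passed the interaction test.

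**Figure D5:**
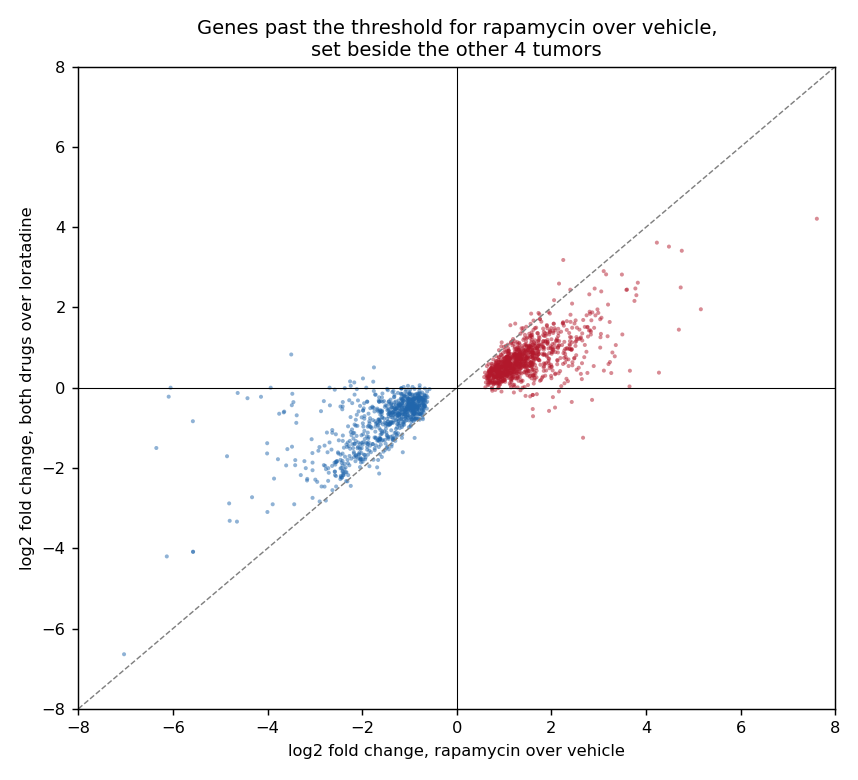
Log2 fold change of rapamycin over vehicle (horizontal axis) and of both drugs over loratadine (vertical axis) for the 1790 genes past the threshold in the first contrast, with equal changes on the dashed line. Of the genes higher with rapamycin 867 and of the lower genes 687 lie on the same side without overlap in the second contrast.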

How the data were processed

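RNA was sequenced from 8 tumors, 2 in each of 4 treatment groups, and the groups were taken from the treatment labels. The deposited values are TPM for 35539 mouse genes, which the authors made with Kallisto and tximport by the study's methods; bedtools, SAMtools 0.1.18 and STAR 2.4.0f1 stand in the submitters' processing notes, so which of these gave the values is unsettled. TPM keeps no read depth, so depth is unknown and no count test was run. The 2 deposited tables differed by at most 5e-07 TPM.

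A gene was tested where 2 or more of the 8 tumors reached 1 TPM (15095 genes). log2(TPM + 1) was fitted with limma 3.58.1 in R 4.3.3, with 4 group means, a mean-variance trend and two-sided tests, and p-values were adjusted by Benjamini-Hochberg over all tested genes at a threshold of 0.05. The fit was checked on simulated data. Alternatives were pseudocounts of 0.1 and 0.5, no filter, a stricter filter (mean of 5 TPM or more), quantile normalization, median-of-ratios scaling, a fit without the trend, a robust fit, array weights, the other table, only the compared groups, an additive model, a threshold of 0.1, and each of the 8 tumors left out in turn.

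Members and the 57 gene lists were chosen with earlier results of these data known. Named genes were up to 14 per direction by size with no overlap between groups and at least 5 TPM on average where they were higher, leaving out predicted genes, clones and pseudogenes, the first gene of each list with up to 3 per direction past the threshold, and 8 per direction by the gap between the rapamycin tumors. Aldoc, Arg1, Asns, Atp6v1a, Atp6v1b2, Atp6v1h, Birc5, Bnip3l, Cbs, Cd28, Cd4, Cd8b1, Cdc20, Cdk1, Cebpb, Cma1, Csn3, Egln3, Fasn, Gsta4, Hars, Hk2, Hmgcs1, Hoxa10, Hoxa11, Hoxa9, Ldha, Mcm7, Nupr1, P4ha1, Pcna, Pdk1, Pfkm, Phgdh, Psat1, Psph, Rfc3, Slc16a3, Top2a, Vars and Vegfa were chosen after their values were seen. Coordinates are from NCBIM37, which matched 14140 of the tested genes, and promoter windows from RefSeq on GRCm38.p6, matched by symbol. By the methods RNA was taken up in TRIzol, while the labels name a column kit. Some members of the sterol list are not reported here by name.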

Additional observations from a re-analysis of the deposited data

Results flagged for a closer look

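The predicted gene GM49450 differed between the rapamycin contrasts with and without loratadine. It is listed at 0 in both rapamycin tumors and in the 4 tumors with both drugs or loratadine, against 55.1 and 77.3 TPM in the vehicle tumors. At 0 with loratadine already, its level could not fall further with rapamycin added. The interaction term was 6.05 ± 0.38 on the log2(TPM + 1) scale (SE, adjusted p = 0.013, limma over all tested genes). This term is the change of -6.05 for rapamycin over vehicle with its sign turned. It passed the threshold in none of the fits with a tumor left out.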

How the results depend on the processing

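The number of genes past the threshold for rapamycin against vehicle, 1790, varied with the setting. It was 589 with no filter (298 higher and 291 lower), 315 with array weights (154 and 161), 173 with only the compared groups (60 and 113), 3002 with the additive model (1813 and 1189) and 3689 at a threshold of 0.1 (2129 and 1560), and 1399 genes were lower with median-of-ratios scaling. With a tumor left out it lay between 36 and 1130, with 14 to 684 higher and 22 to 503 lower. These fits have fewer samples, and why B1L counts the most was not tested. The median standard error of the 1790 genes was 0.32 without B1L and likewise 0.32 without F5L, against 0.26 with all tumors. For both drugs against loratadine, where 0 genes passed, 4 passed with a pseudocount of 0.1, 2 with 0.5, 16 with no filter, 22 with array weights, 10 at a threshold of 0.1, and 0 to 1 with a tumor left out. The interaction was called for 0 genes with a pseudocount of 0.1 and with a mean of at least 5 TPM, for 9 with no filter, and for 0 with any tumor left out. Of 117 named genes past the threshold, 6 (Aoc1, Pth1r, Aldh1l2, Gsta1, Sh2d6 and Gsta3) were called in all 21. The median of B and plasma cell markers had no value with a mean of at least 5 TPM, since no member was left. No paired analysis was possible because the rapamycin and vehicle tumors share no letter in their codes and no label pairs them. With 2 tumors in each group and TPM alone, the depth behind low values is unknown.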
